A study of Mus musculus with 4 samples.

Results

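The clustered protocadherins are neuronal adhesion genes that lie side by side in an alpha, a beta and a gamma cluster. All rows of the deposited gene table whose symbol begins with Pcdha, Pcdhb or Pcdhg, followed by a number or by c and a number, were taken as members, with the A and B genes of the gamma cluster included. This gave 56 of the 19465 genes in the table, of which 14 belong to the alpha, 21 to the beta and 21 to the gamma cluster. The gamma genes are 12 A genes, 6 B genes and 3 C genes. The data came from a Visium CytAssist assay on coronal sections of formalin-fixed, paraffin-embedded mouse brain in which the striatum was visible, which reads each gene through probes that pass from the tissue to a slide with a grid of barcoded spots. A total of 4 mice were used, of which 2 were wild type and 2 were Celsr3 heterozygous. No animal was treated, and neither strain, age, sex nor the make of the Celsr3 allele was stated. The 12602 spots fell into 4 barcode sets by the ending of their barcode, and the endings match no sample label, so no set was assigned to a mouse or a genotype. Values are therefore given for each set, with no comparison of genotypes, no replicate error and no p-value.

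In the alpha and gamma clusters each variable first exon has its own promoter and is spliced to constant exons shared by the whole cluster, whereas a beta gene is a single exon with no constant part. Single neurons switch on a small and largely random choice of the variable promoters, through DNA methylation and looping of promoters to enhancers by CTCF and cohesin, while C-type genes are expressed more regularly. The proteins form dimers whose combined identity is matched between cells, which lets the branches of 1 neuron recognise and avoid each other, and gamma genes are also needed for the survival of many neurons. Probe sharing between these close copies has to be kept in view. The probe set was not used here, so it is unknown which counts came from a probe that also binds another member, or from a probe in a shared constant exon.

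Sets 1 to 4 held 3055, 2808, 3445 and 3294 spots, before 1 spot under 500 counts was left out of set 3, which kept 3444. Their counts were 174761560, 109663162, 165184912 and 90752475. Sets 1 and 3 were thus deeper than sets 2 and 4. The 4744 different barcodes recur between sets, and 1613 of them were present in all 4. A level is given as CPM, the counts of a gene per 1000000 counts of the same spots. Levels of different members are not compared with each other, because the genes may have different numbers of probes. Intervals are at 95% and stand for counting error alone. Summed over members, the level was 1023, 1057, 1065 and 915 CPM in sets 1 to 4. The alpha cluster contributed 142, 122, 129 and 112 CPM, the beta cluster 230, 173, 215 and 148 CPM, and the gamma cluster 652, 762, 721 and 655 CPM. The tested members had a median level of 12.8, 9.63, 11.8 and 8.04 CPM, and all tested genes 28.5, 25.7, 27.2 and 26.1 CPM. As numbers of probes may differ here too, these medians are not read as low expression of the members.

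Areas were built from clusters of spots and named by their marker genes. Each member's level in an area was divided by its level in all other spots of the same set. A gene was called higher or lower in an area when the ratio was past 1.5 in the same direction, with an interval that left out 1, in every set with at least 30 spots of that area. Only areas present in at least 3 sets were compared. The rule was run on the 14559 genes with at least 50 counts in every set, which included 55 members. The member left out was Pcdhb21, with 49 counts in set 2. A spot can hold several cells, so fewer cells of a type and less RNA per cell cannot be told apart.

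**Figure D1:**
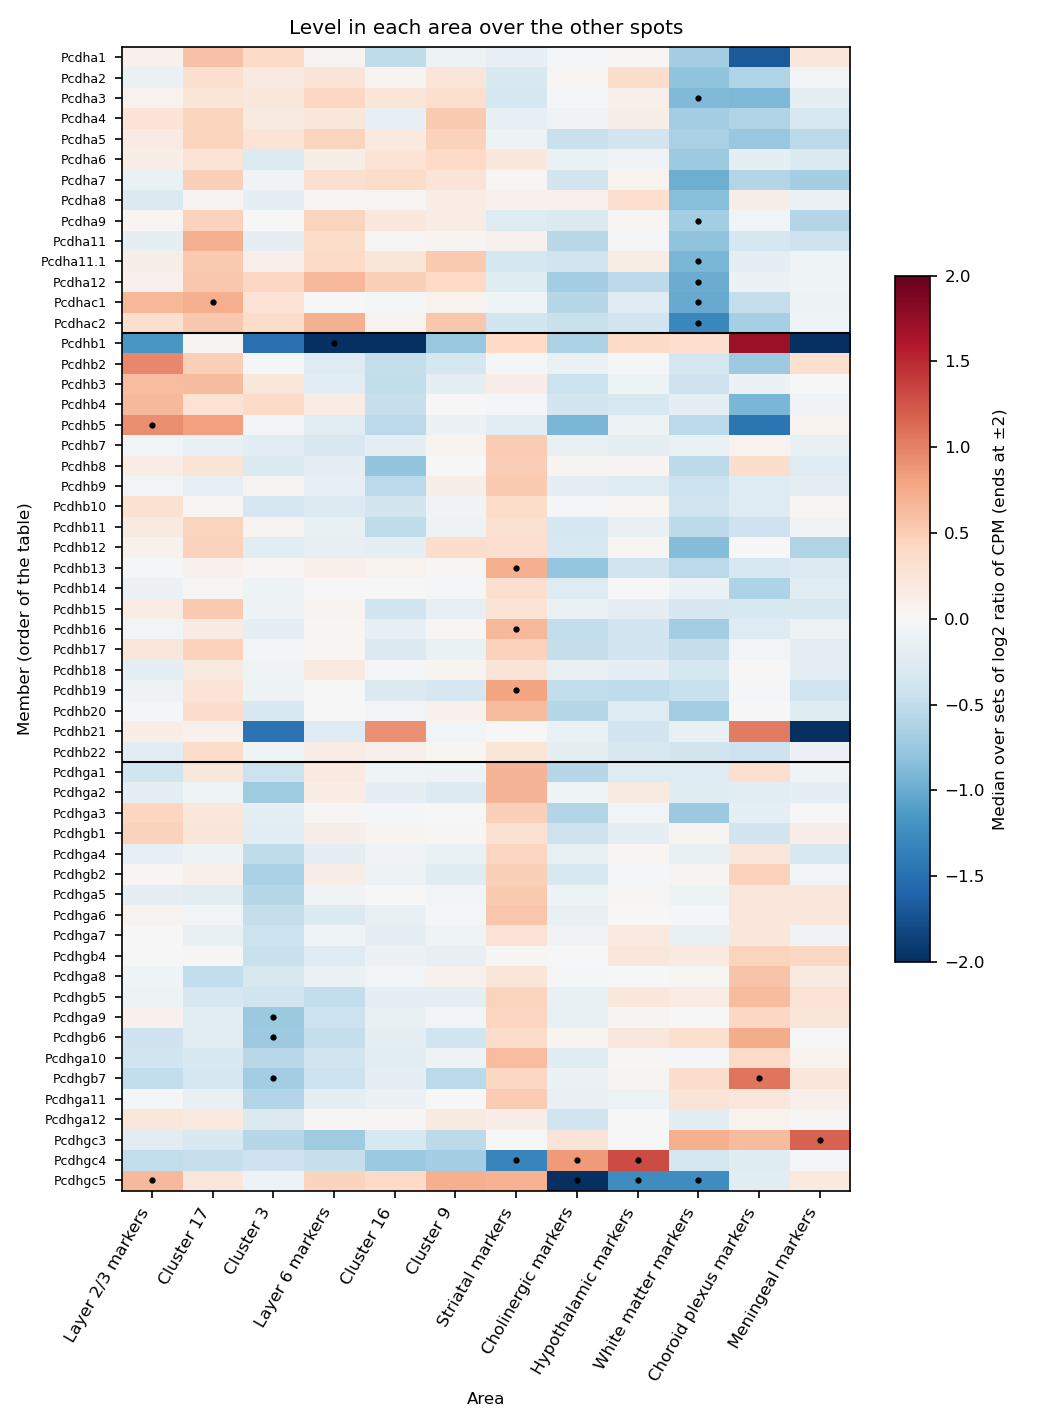
Median over the compared sets of the log2 ratio of CPM in an area (columns) over the other spots of the same set, for each of the 56 members (rows, in the order of the table, with black lines between the alpha, beta and gamma clusters). Red is higher and blue lower in the area, the colour scale ends at 2 in both directions, and a black dot marks a called member. Clusters are numbered where no marker list named them, and their leading genes are Kcnab3 and Rorb (17), Fezf2 and Adra1d (3), Ccn2 and Cplx3 (16) and Nr4a2 and Ccn3 (9). The row of Pcdhgc5 is red in the layer 2/3, layer 6, cluster 9 and striatal columns and blue in the cholinergic, hypothalamic and white matter columns, all alpha rows are blue in the white matter column, and the dark cells of Pcdhb1 and Pcdhb21 rest on few counts.

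The gamma C genes come first. Pcdhgc5, a C-type gene of the gamma cluster, had a level of 322, 359, 349 and 349.5 CPM in the striatal-marker area of sets 1 to 4. In the hypothalamic-marker area its level was 97.9, 68.0, 116 and 99.7 CPM. In the cholinergic-marker area of the basal forebrain it was 42.9, 88.1, 51.5 and 49.6 CPM. The 4 striatal values thus lie above every value of the hypothalamic- and cholinergic-marker areas.

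In the hypothalamic-marker area Pcdhgc5 was the 1 member called lower (5.46% of all tested genes were called lower there), at 0.446, 0.201, 0.422 and 0.422 times the other spots. By marker score it was again the 1 member called lower in the hypothalamic area (6.95% of genes). With coarser clusters, at a clustering resolution of 0.4 in place of 0.8, the hypothalamic calls of Pcdhgc5 and of Pcdhgc4 were lost, with median log2 ratios of -0.81 and 1.02 over sets. It was also the 1 member called lower in the cholinergic-marker area (4.89% of genes), at ratios of 0.202, 0.293, 0.189 and 0.216. By marker score it was called lower there with Pcdha12 (3.52% of genes). Of the cortical areas, the layer 2/3-marker area had Pcdhgc5 levels of 362, 436 and 392 CPM in sets 1 to 3 and ratios of 1.90, 1.54 and 1.57. Pcdhgc5 and Pcdhb5 were the 2 members called higher there (3.92% of genes), and none was called lower (10.4% of genes). The cortical spots of set 4 formed clusters of their own, and set 4 had 1 spot in that layer 2/3-marker area. When each spot was instead given to the area whose marker list scored highest, all 4 sets had a layer 2/3 area, and Pcdhgc5 stood at 347, 421, 389 and 402 CPM in it, 1.85, 1.53, 1.60 and 2.13 times the other spots. It was the 1 member called higher in that layer 2/3 area (3.43% of genes), and none was called lower (9.82% of genes). Its level in a cluster led by Nr4a2 and Ccn3 was 332, 401, 404 and 412 CPM. In the striatal-marker area Pcdhgc5 was not called, because its ratios were 1.83, 1.30, 1.47 and 1.78 and sets 2 and 3 stayed under the threshold. No other cluster-based cortical area had Pcdhgc5 called.

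Pcdhgc4, the C-type gene known from knockout mice for its part in neuronal survival, ran the other way. Its level was 21.2, 30.6, 22.6 and 25.0 CPM in the striatal-marker area and 87.0, 116, 116 and 120.1 CPM in the hypothalamic-marker area. The lowest hypothalamic value lies above the highest striatal one. Pcdhgc4 was the 1 member called lower in the striatal-marker area (13.8% of genes), with ratios of 0.402, 0.534, 0.403 and 0.359, and again the 1 called lower by marker score (14.2% of genes). It was the 1 member called higher in the hypothalamic-marker area (6.06% of genes), with ratios of 2.13, 2.97, 2.76 and 2.21, and again the 1 called higher by marker score (6.43% of genes). It was also the 1 member called higher in the cholinergic-marker area (3.48% of genes), where its level was 79.3, 92.8, 97.2 and 107 CPM. With areas set by marker score that cholinergic call was lost, at ratios of 1.22, 1.93, 1.47 and 1.38, and no member was called higher (1.93% of genes). A thalamic area could be compared by marker score in sets 1, 3 and 4. Pcdhgc4 was called higher there (1.82% of genes) at 83.9, 87.9 and 96.5 CPM, and Pcdhgc5 and Pcdhgb1 were called lower (4.86% of genes). Pcdhgb1, a variable gamma gene, had 4.86, 3.95 and 3.11 CPM there, with ratios of 0.516, 0.490 and 0.413. Pcdhgc5 stood at 45.5, 82.0 and 44.9 CPM in that area.

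**Figure D2:**
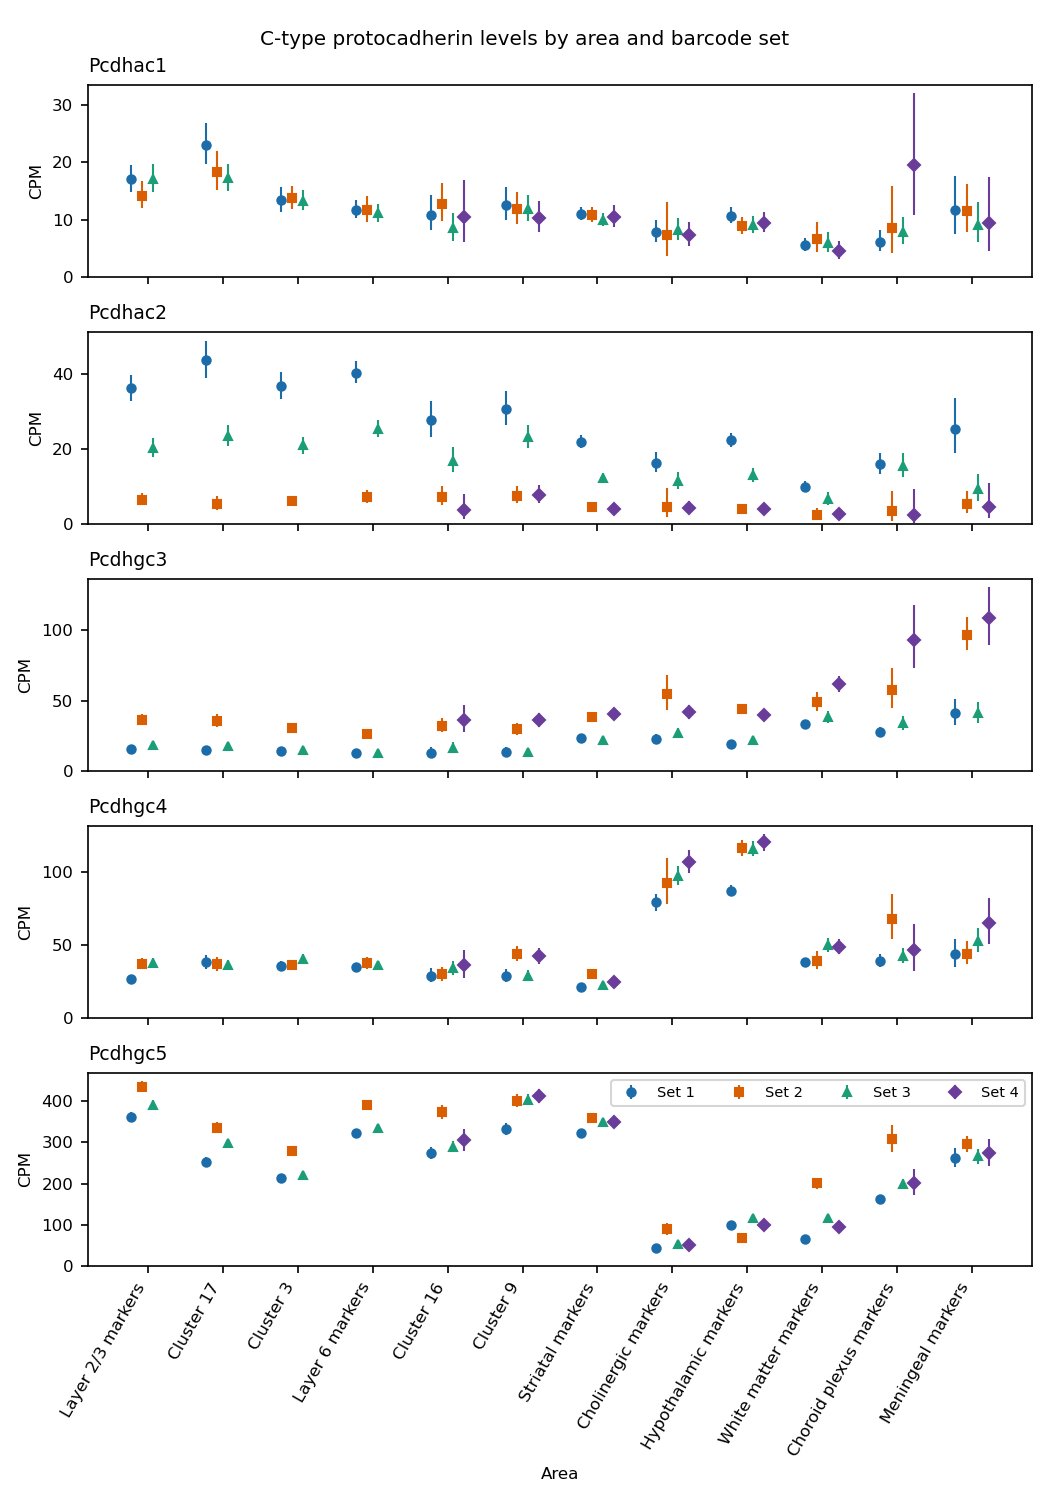
Level in CPM of the 5 C-type protocadherins (panels, each with an axis from 0) in the areas (x axis) of each barcode set (colour and symbol), with 95% counting intervals as bars. Points are shown where a set had at least 30 spots of the area. Pcdhgc5 lies above 300 CPM in all 4 sets of the striatal area and at or under 116 CPM in the hypothalamic area, and Pcdhgc4 shows the opposite order.

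The share of gamma counts held by a member does not depend on the scaling to all counts, but it does depend on the other gamma members. As Pcdhgc5 holds a large part of the gamma counts, a higher level of it lowers the share of Pcdhgc4. The shares of these genes are therefore coupled and are not separate results. Pcdhgc5 made up 38.2%, 39.3%, 39.5% and 42.1% of the gamma counts of the striatal-marker area in sets 1 to 4. In the hypothalamic-marker area its share was 16.3%, 12.4%, 17.7% and 16%, and in the cholinergic-marker area 8.81%, 15.6%, 10.4% and 9.56%. In the Nr4a2 and Ccn3 cluster and the layer 2/3-marker area the share lay between 44.8% and 51.7%. Pcdhgc4 made up 2.51%, 3.35%, 2.55% and 3.01% of gamma counts in the striatal-marker area. Its share in the hypothalamic-marker area was 14.5%, 21.2%, 17.6% and 19.3%. All intervals of the striatal shares lie apart from those of the hypothalamic shares, for both genes and in every set. These are shares of probe counts and not of molecules.

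**Figure D3:**
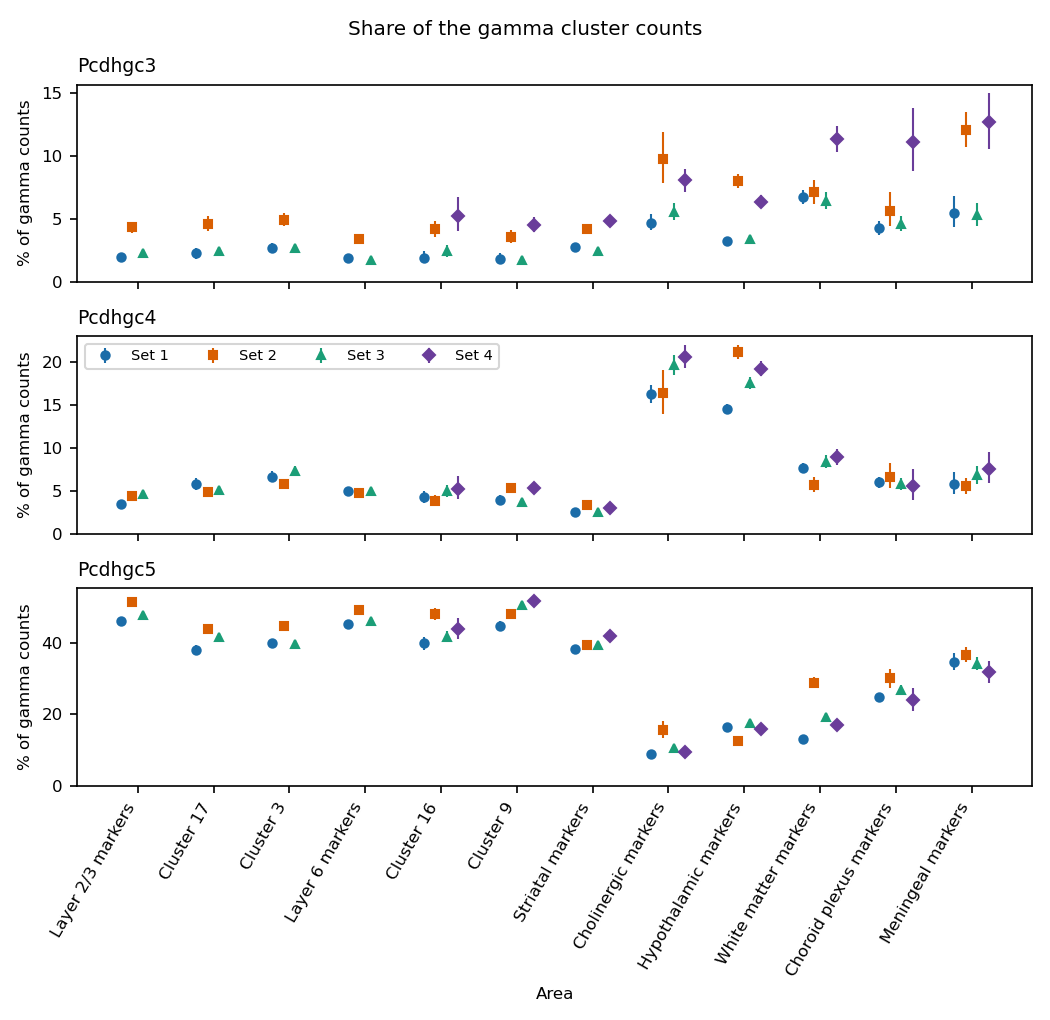
Percent of the counts of the gamma cluster that came from Pcdhgc3, Pcdhgc4 and Pcdhgc5 (panels) in each area (x axis) and barcode set (colour and symbol), with exact 95% binomial intervals as bars. Pcdhgc5 makes up 38.0% to 51.7% of gamma counts in the cortical and striatal areas and Pcdhgc4 14.5% to 21.2% in the cholinergic and hypothalamic areas.

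Pcdhgc3, the remaining gamma C gene, which is also expressed in astrocytes and known for a link to Wnt signalling through Axin1, had its highest levels, among the areas compared, in the meningeal-marker area, at 41.4, 96.9, 41.2 and 109 CPM. It was the 1 member called higher there (6.5% of genes), with ratios of 2.00, 2.59, 1.96 and 2.71, and no member was called lower (2.77% of genes). In the white matter-marker area it stood at 33.8, 49.3, 38.3 and 61.8 CPM, and the ratio of 1.28 in set 2 kept it from being called. In the striatal-marker area its level was 23.3, 38.5, 21.9 and 40.4 CPM and its ratios lay between 0.985 and 1.14. The summed level of 8 astrocyte markers was 6783, 7559, 5995 and 8756 CPM in the meningeal-marker area, against 2908, 2813, 2668 and 3034 CPM in the whole sections. The summed level of 4 endothelial markers was 412, 588, 362 and 742 CPM there and 162, 189.7, 132 and 207 CPM in the whole sections. No marker of either list was at 0, and their part in the level of Pcdhgc3 was not tested. With areas set by marker score, Pcdhgc3 was not called in the meningeal area, where the ratio was 1.46 in set 1 and 1.79 to 2.31 in the others. No member was called higher or lower in that area (5.91% and 0.646% of genes).

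The alpha C genes differed in how far the sets lay apart, although both were called lower in the white matter-marker area. Pcdhac1 had nearly the same level in the 4 whole sections, 11.3, 11.6, 11.0 and 10.8 CPM. In sets 1 to 3 its highest levels lay in a cluster led by Kcnab3 and Rorb, the latter a marker of cortical layer 4, at 23.1, 18.4 and 17.2 CPM. Pcdhac1 was the 1 member called higher in that cluster (3.89% of genes), with ratios of 2.14, 1.65 and 1.63. In the layer 2/3-marker area it had 17.1, 14.2 and 17.1 CPM, in set 3 nearly the same as in that cluster. Its ratios in the layer 2/3-marker area were 1.58, 1.26 and 1.62, and set 2 kept it from being called. With areas set by marker score, the layer 4 area gave it 18.7, 18.2, 17.8 and 16.2 CPM, and again it was the 1 member called higher (2.69% of genes), with none called lower (7.47% of genes). Its lowest levels among the areas compared, 5.63, 6.58, 5.95 and 4.49 CPM, lay in the white matter-marker area.

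Pcdhac2 followed the other alpha genes by area but differed widely between sets. It had 40.5, 7.15 and 25.6 CPM in the layer 6-marker area of sets 1 to 3 and 22.0, 4.60, 12.4 and 3.96 CPM in the striatal-marker area. In the white matter-marker area its level was 9.92, 2.35, 6.64 and 2.67 CPM. Within each set the white matter level was thus below the striatal one, while the sets themselves were several fold apart.

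The alpha cluster as a whole stood out in white matter. Of its 14 members, 6 were called lower in the white matter-marker area, together with Pcdhgc5 and no beta gene (7 members in all, against 6.1% of all tested genes). The alpha members called were Pcdha3, Pcdha9, Pcdha11.1, Pcdha12, Pcdhac1 and Pcdhac2, and 0 members were called higher (8.69% of genes). The median ratio of the alpha members was 0.439, 0.629, 0.533 and 0.555 in sets 1 to 4, that of the 20 tested beta members 0.626, 0.870, 0.763 and 0.780, and that of the gamma members 0.912, 1.02, 0.972 and 0.986. Over all genes tested the median was 0.978, 0.980, 1.02 and 1.02. In each set the alpha median was therefore the lowest and the gamma median close to that of all genes.

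Pcdha9, a variable alpha gene, had 6.41, 10.8, 8.47 and 9.69 CPM in the white matter-marker area and ratios of 0.434, 0.623, 0.611 and 0.624. Pcdha3 had 4.79, 3.99, 4.69 and 3.09 CPM and ratios of 0.457 to 0.578. Pcdha12 had 6.13, 5.64, 6.18 and 4.35 CPM and ratios of 0.471 to 0.636. Set 1 had the lowest ratio for each of these 3 genes. Pcdha11.1 had 4.51, 2.58, 4.35 and 2.95 CPM and ratios of 0.385 to 0.556, Pcdhac1 had ratios of 0.397 to 0.558, and Pcdhac2 had ratios of 0.357 to 0.486. Pcdhgc5 was at 0.301, 0.666, 0.430 and 0.413 times the other spots. The summed level of 8 oligodendrocyte markers in the white matter-marker area was 72648, 63578, 40029.7 and 55709 CPM, against 17350.1, 9345, 8849 and 12783 CPM in the whole sections. That of 6 neuronal markers was 2612, 2624, 3289 and 3664 CPM against 5395, 6180.4, 5973 and 6434 CPM. No marker of either list was at 0, and the part of the cell mixture in the member ratios was not tested. The count of members called lower depended on how the area was drawn. It was 2 (Pcdhac1 and Pcdhgc5) with areas set by marker score (4.33% of genes, and 6.62% called higher), 2 when clusters were made without set 1, 4 without set 3 and 12 without set 4.

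In 3 cortical areas the alpha medians lay at or above 1 and the gamma medians below it. In the Kcnab3 and Rorb cluster the median alpha ratio was 1.49, 1.37 and 1.32 in sets 1 to 3, with 14, 12 and 14 of the 14 members above 1. The beta median there was 1.23, 1.18 and 1.21 and the gamma median 0.904, 0.928 and 0.938, beside 0.901, 0.928 and 0.915 over all genes. The gamma median was thus close to that of all genes. With these medians over all genes, more genes lay below 1 than above it in that cluster, but their share above 1 is not given. No member was called lower in that cluster (10.4% of genes). In a cluster led by Fezf2 and Adra1d, of which Fezf2 is a marker of deep-layer projection neurons, the alpha median was 1.18, 1.00 and 1.15. The gamma median was 0.716, 0.728 and 0.701, and all 18 gamma A and B members had a ratio below 1 in each of the 3 sets. The median and the share below 1 over all genes are not given here for that cluster. The count is therefore not read as particular to the gamma members. No member was called higher there (2.59% of genes).

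The members called lower in the Fezf2 and Adra1d cluster were 3 gamma genes, Pcdhga9, Pcdhgb6 and Pcdhgb7 (10.3% of genes). Pcdhga9 had 16.2, 21.8 and 21.2 CPM and ratios of 0.592, 0.600 and 0.665, and Pcdhgb6 had 12.9, 12 and 11.9 CPM and ratios of 0.607, 0.658 and 0.512. Pcdhgb7 had 20.2, 23.2 and 22.5 CPM there against 34.4, 36.3 and 36.5 CPM in the other spots. With a layer 5 area set by marker score, Pcdhgb7 was the 1 member called lower (8.25% of genes), at 19.6, 23.1, 23.1 and 16.9 CPM in the 4 sets, and none was called higher (2.02% of genes). In that area Pcdhga9 and Pcdhgb6 had ratios of 0.591 to 0.769 and of 0.510 to 0.698. The layer 6-marker area had an alpha median of 1.30, 1.21 and 1.18, and 1 member called lower, Pcdhb1 (11.4% of genes), with none called higher (3.02% of genes). That call rests on 1 count in the area in each of the 3 sets, and it was lost when clusters were made without set 1, set 3 or set 4. No member was called in the Nr4a2 and Ccn3 cluster, either higher (1.58% of genes) or lower (7.01% of genes), nor in a cluster led by Ccn2 and Cplx3 (2.6% higher and 5.07% lower). Pcdhb5, called higher in the layer 2/3-marker area, had 2.28, 2.49 and 1.99 CPM there from 28, 26 and 23 counts, with ratios of 1.81, 2.52 and 1.90.

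Pcdhgb7 was higher around the ventricles. In the choroid plexus-marker area it had 56.1, 82.9, 63.5 and 70.0 CPM, 1.73, 2.42, 1.87 and 2.35 times the other spots, and it was the 1 member called higher (6.39% of genes), with none called lower (6.12% of genes). In an area of ependymal and ventricle lining markers, which was formed by marker score only, it had 83.6, 93.2, 82.9 and 91.5 CPM, with ratios of 2.59, 2.76, 2.40 and 3.16. Pcdhgb6 was called higher there too (11.1% of genes), with 40.6, 33.7, 44.1 and 36.5 CPM and ratios of 2.00, 1.95, 2.03 and 2.25, and no member was called lower (3.64% of genes). Of the 6 gamma B genes, these 2 are the last in the order of the table. Choroid plexus by marker score gave ratios of Pcdhgb7 of 1.71 and 1.63 in sets 1 and 3 but 1.14 in set 2, and no member was called higher (3.19% of genes). Pcdhgc5 was called lower in that area (4.29% of genes), at 94.4, 117 and 111 CPM in sets 1 to 3.

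The striatal-marker area, the tissue named in the labels, held 644, 753, 800 and 472 spots. The medians of the beta members and of the gamma A and B members lay above 1 there, and the median of the alpha members below it. The median ratio was 1.27, 1.34, 1.35 and 1.17 for beta and 1.37, 1.44, 1.37 and 1.29 for the gamma A and B members. It was 0.941, 0.90, 0.779 and 0.933 for alpha and 0.907, 0.923, 0.921 and 0.917 over all genes. Of the 18 gamma A and B members, 18, 18, 17 and 16 were above 1 in sets 1 to 4. Over all genes the median was below 1 in each set, so more genes lay below 1 than above it. The share of all genes above 1 is not given.

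Few of these ratios passed 1.5 in all sets, and 3 beta members were called higher in the striatal-marker area (5.66% of genes). They were Pcdhb13, Pcdhb16 and Pcdhb19, single-exon adhesion genes of the beta cluster. Pcdhb19 had 19.1, 10.7, 20.1 and 9.12 CPM in the area and 10.7, 6.28, 11.5 and 5.60 CPM in the other spots, with ratios of 1.79, 1.70, 1.75 and 1.63. Pcdhb13 had 18.2, 13.3, 16.6 and 11.5 CPM and ratios of 1.86, 1.63, 1.66 and 1.52, and Pcdhb16 had 17.8, 11.0, 14.9 and 10.6 CPM and ratios of 1.56, 1.70, 1.60 and 1.51. All 3 had their lowest ratio in set 4. Without set 3 in the clustering Pcdhb13 and Pcdhb16 were not called, and without set 1 Pcdhb16 was not. With areas set by marker score, and with clusters made without set 2, 1 member was called higher, and in the marker-score area this was Pcdhb19 (5.73% of genes). Scaling matters here, because TMM factors raise the ratio of every gene in the striatal-marker area by 0.19, 0.14, 0.19 and 0.11 on the log2 scale in sets 1 to 4. With TMM scaling 6 members were called higher and 1 lower (7.53% and 11.2% of genes), and with RLE scaling 11 were called higher and 1 lower (7.95% and 10.6% of genes), against 3 and 1 with CPM.

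Pcdhb20 had 34.5, 30.1, 35.2 and 21.3 CPM in the striatal-marker area, and a ratio of 1.32 in set 4, after 1.61, 1.56 and 1.55 in sets 1 to 3, kept it just outside the call. Among the other beta and gamma members with the most counts, Pcdhb17 had 40.3, 33.7, 44.3 and 30.9 CPM in the striatal-marker area, 1.30 to 1.41 times the other spots. Pcdhga11 had 39.5, 54.7, 53.6 and 49.2 CPM, 1.39 to 1.44 times the other spots. Pcdhga12, in contrast, had ratios of 1.07, 1.26, 1.05 and 1.11. These ratios are on the same side of 1 in all sets but below the 1.5 used for a call.

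The number of members seen in a spot gives a further view of the same areas. After thinning each spot to 20000 counts, the median striatal-marker spot had counts for 16, 15, 15 and 13 members in sets 1 to 4, with 1, 11, 3 and 96 shallower spots left out. The median white matter-marker spot had 11, 13, 11 and 10, with 14, 69, 39 and 275 left out. Over the whole sections the thinned median was 14, 13, 14 and 12, and in the layer 2/3-marker area 15, 13 and 14 in sets 1 to 3. The number of all genes seen per thinned spot is not given, so the gap is not read as particular to the members. Before thinning the medians were 28, 21, 24 and 15 in the striatal-marker area and 16, 13, 14 and 9 in the white matter-marker area. As a spot pools several cells, this number says nothing about how many members 1 cell uses.

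Genes outside the clusters were examined from lists of regulators and of signalling partners. None of the 19 regulators, which hold CTCF, cohesin subunits, DNA methyltransferases and silencing factors, was called in any of the cluster-based areas. By marker score, 1 regulator was called, the cohesin subunit gene Stag2 in the ventricle lining area, with ratios of 1.57, 1.60, 1.81 and 1.71. The shares of all tested genes called in these areas are given above. Beside them, so few calls among 19 genes are not read as a result about the regulators. The partners called lower in the hypothalamic-marker area included Ptk2 and Ptk2b, the focal adhesion kinases that clustered protocadherins inhibit, and Wasf1 and Cyfip2 of the WAVE actin complex. Ptk2b had ratios of 0.329, 0.120, 0.230 and 0.250 there. In the cholinergic-marker area these 4 genes and Prkca were called lower. In the striatal-marker area Ptk2b was called higher, with ratios of 2.37, 1.60, 1.74 and 2.60, and Ret was called lower (5.66% and 13.8% of genes). In the white matter-marker area Wasf2, Fyn and Rhoa were called higher and Cyfip2 was called lower. Of the 27 tested partners, 5 were called lower in the hypothalamic- and 6 in the cholinergic-marker area. In the white matter-marker area 3 were called higher and 2 lower. The shares of all tested genes called in these areas are given above, and the counts are not read as particular to the partners.

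Between whole sections, members were called apart when the ratio of 2 sets was past 1.5 with an interval that left out 1. Each such pair is 1 library against 1 library, and pairs that share a set are not independent. Between sets 1 and 2, 16 members were apart (30.4% of genes), 14 higher in set 1 and 2 in set 2 (17.5% and 12.9% of genes). Between sets 3 and 4, 17 were apart (30.1% of genes), 14 higher in set 3 and 3 in set 4 (12.9% and 17.2% of genes). Between sets 1 and 4, 23 were apart (32.6% of genes), 21 higher in set 1 and 2 in set 4 (16% and 16.6% of genes). Between sets 2 and 3, 12 were apart (23.8% of genes), 3 higher in set 2 and 9 in set 3 (11.3% and 12.5% of genes). Sets 1 and 3 were closer, with 2 members apart (7.26% of genes), Pcdhac2 and Pcdhb1, both higher in set 1 (4.84% of genes, and 2.42% higher in set 3). Between sets 2 and 4, 1 member was apart (7.77% of genes), Pcdha1, which was higher in set 4 (6.12% of genes, and 1.65% higher in set 2).

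Most of the members that were apart were higher in sets 1 and 3. Of the 4421 genes apart between sets 1 and 2, 2548 were higher in set 1, and of the 4381 apart between sets 3 and 4, 1875 were higher in set 3. In the beta cluster the median ratio was 1.44 for set 1 over set 2 and 1.46 for set 3 over set 4, against 1.03 and 0.991 over all genes. Of the 20 tested beta members, 17 were above 1 in both of these pairs, against 38.6% of all genes, and 2, Pcdhb1 and Pcdhb2, were below 1 in both. In the alpha cluster 8 of 14 and in the gamma cluster 10 of 21 were above 1 in both. With the sets paired as 1 over 4 and 3 over 2, 16 beta, 8 alpha and 11 gamma members were above 1 in both, against 41.0% of all genes.

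**Figure D4:**
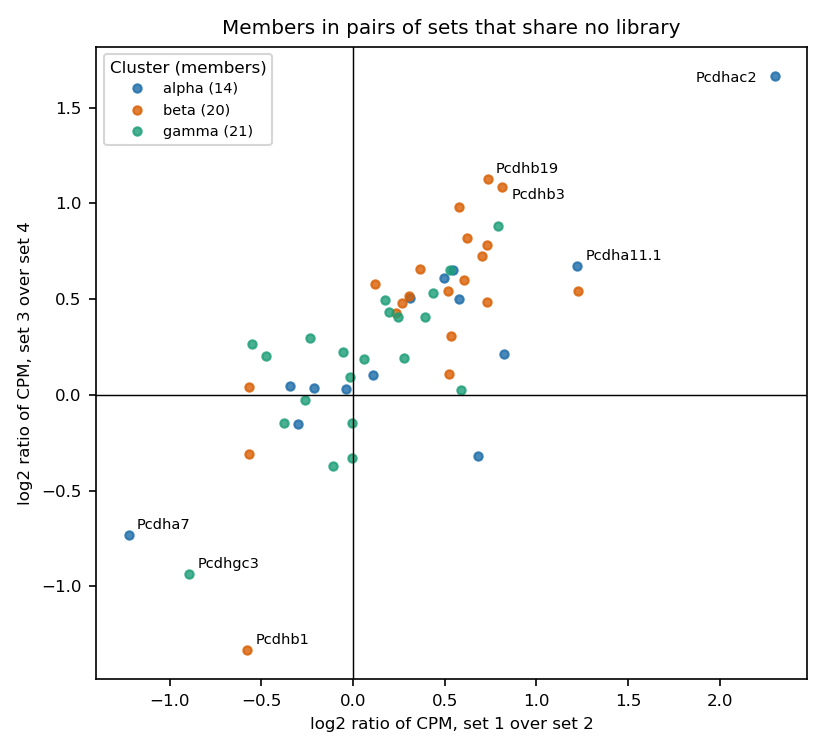
Each point is a tested member, placed by the log2 ratio of its whole-section CPM in set 1 over set 2 (x axis) and in set 3 over set 4 (y axis), coloured by cluster. Of the 20 beta points, 17 lie to the upper right of both zero lines, Pcdhac2 lies farthest to the upper right, and Pcdha7 and Pcdhgc3 lie to the lower left.

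Pcdhac2, the alpha C gene known for the spacing of serotonin axons, was spread most. It had 25.9, 5.27, 16.7 and 5.27 CPM in the whole sections, from 4533, 578, 2763 and 478 counts. Its level in set 1 was 4.92 times that in set 2, and its level in set 3 was 3.18 times that in set 4. The same held by area: set 1 was 3.55 to 8.09 times set 2 in each of 12 areas, and set 3 was 1.99 to 6.04 times set 4 in each of 8 areas. Pcdhac1, the other alpha C gene, had a highest level 1.07 times its lowest.

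Other members ran against the beta genes. Pcdha7, a variable alpha gene, had 9.34, 21.8, 13.5 and 22.4 CPM, and Pcdhgc3 had 21.0, 39.0, 21.4 and 40.9 CPM. Both were lower in sets 1 and 3 than in sets 2 and 4. The ratio of set 1 to set 2 lay between 0.409 and 0.684 for Pcdhgc3 in the 12 areas, and that of set 3 to set 4 between 0.364 and 0.657 in 8 areas. For Pcdha7 the same ratios lay between 0.172 and 0.767 and between 0.352 and 0.735.

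Pcdhb15 had 8.53, 3.64, 5.76 and 3.96 CPM, Pcdhb19 had 12.2, 7.35, 13.2 and 6.05 CPM, and Pcdhb3 had 10.6, 6.04, 11.1 and 5.2 CPM. These 3 beta genes were highest in sets 1 and 3. The same held for Pcdhb4 at 5.83, 3.57, 5.15 and 3.11 CPM, Pcdhb8 at 6.36, 3.84, 6.56 and 3.81 CPM, Pcdhb9 at 14.0, 9.39, 14.3 and 7.23 CPM, and Pcdhb11 at 9.16, 7.12, 9.21 and 5.84 CPM. Pcdhb7 had 13.4, 9.37, 10.2 and 7.0 CPM, Pcdhb12 had 7.85, 5.16, 5.98 and 3.94 CPM, and Pcdhb14 had 13.8, 8.96, 11.4 and 6.44 CPM. In these, too, both values of sets 1 and 3 exceed those of sets 2 and 4. Pcdhb16 had 12.6, 7.59, 10.4 and 7.45 CPM and Pcdhb18 had 17.6, 12.1, 13.3 and 10.7 CPM, and in both of them, too, sets 1 and 3 lay above sets 2 and 4. Pcdhb5 was apart between sets 1 and 4 only, with 1.33, 1.13, 1.11 and 0.826 CPM. Pcdhb17 and Pcdhb20 were apart in no pair, at 32.6, 26.5, 33.9 and 23.7 CPM and at 23.8, 21.9, 25.1 and 16.8 CPM. Pcdhb1, the beta gene with the fewest counts among those tested, ran the other way, at 0.544, 0.812, 0.315 and 0.793 CPM, and Pcdhb2, at 4.02, 5.95, 4.43 and 5.48 CPM, and Pcdhb10, at 8.34, 12.4, 10.0 and 9.73 CPM, were highest in set 2 and apart in no pair.

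Among the alpha genes, Pcdha1 was lowest in set 2, at 4.53, 2.56, 4.93 and 4.24 CPM, and Pcdha2 likewise, at 2.84, 1.77, 2.11 and 2.63 CPM. Pcdha3 had 9.91, 6.8, 8.53 and 5.43 CPM, Pcdha4 had 7.92, 5.32, 6.59 and 4.65 CPM, and Pcdha12 had 12.3, 8.74, 12.3 and 8.04 CPM. These 3 were highest in sets 1 and 3, while Pcdha9 was not apart in any pair, at 13.9, 17.1, 13.6 and 15.1 CPM. The table has 2 rows for Pcdha11, and how they differ is not stated. One of them had 3.59, 3.34, 3.09 and 2.88 CPM, and the other, Pcdha11.1, had 11.0, 4.71, 8.16 and 5.12 CPM. The ratio of set 1 to set 2 was 1.08 for the first and 2.33 for the second, although both carry the name of 1 gene. In the gamma cluster 4 variable genes were apart in some pair. Pcdhga2 had 11.1, 6.43, 11.8 and 6.4 CPM, Pcdhgb2 had 15.3, 10.6, 14.8 and 9.42 CPM, and Pcdhgb5 had 13.0, 9.63, 11.2 and 7.75 CPM. All 3 were highest in sets 1 and 3, whereas Pcdhga3 was highest in set 1 alone, at 17.4, 11.6, 11.8 and 11.6 CPM. Pcdhgc5 and Pcdhgc4 were apart in no pair, at 203, 297, 259.5 and 216 CPM and at 47.1, 50.8, 49.4 and 64.0 CPM, and neither was Pcdhga11, at 30.3, 42.1, 41.5 and 36.0 CPM.

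The median ratio of the highest to the lowest set was 1.57 for alpha, 1.70 for beta, 1.36 for gamma and 1.48 over all genes.

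**Figure D5:**
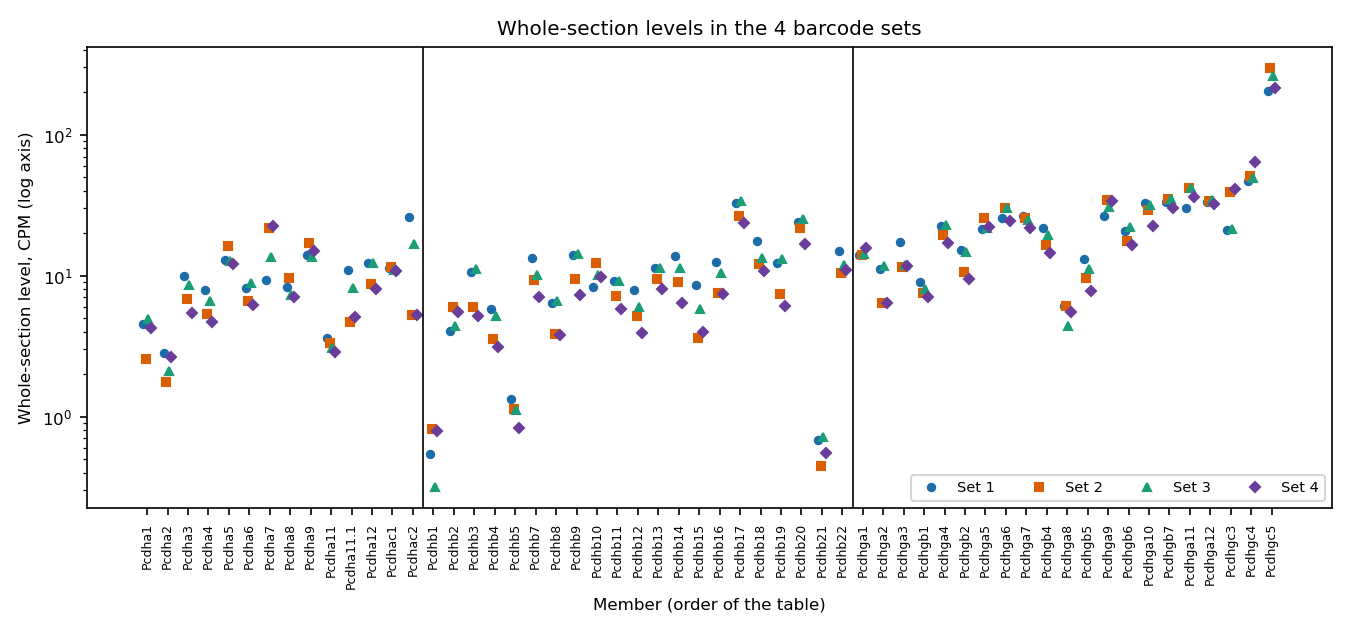
Whole-section level in CPM (log axis) of each of the 56 members (x axis, in the order of the table, with lines between the alpha, beta and gamma clusters) in the 4 barcode sets (colour and symbol). Pcdhac2 is spread from 5.27 to 25.9 CPM, while the 4 points of Pcdhac1 and of Pcdhga12 nearly coincide.

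Depth and scaling moved with these differences. Sets 1 and 3, in which most beta members were higher, were also the deeper sets. After counts were thinned to the smallest library, 15 members were higher in set 1 and 2 in set 2 (18.1% and 10.7% of genes), and 12 were higher in set 3 and 2 in set 4 (13.4% and 14.5% of genes). Thinning of summed counts keeps the expected ratio of each gene, so these numbers show sampling alone. The part of depth in the differences was not tested. TMM factors raise set 1 over set 2 by 0.17 and set 3 over set 4 by 0.23 on the log2 scale for every gene. With TMM scaling 28 members were higher in set 3 and 2 in set 4, and the genes as a whole turned the same way, with 23.9% higher in set 3 and 10.5% in set 4. Between sets 2 and 3, 14 members were then higher in set 3 and 2 in set 2 (19.5% and 7.49% of genes). Under TMM, 17 of the 20 beta members were still above 1 both for set 1 over set 2 and for set 3 over set 4, and so were 53.5% of all genes. With the areas weighted equally, 9 members were higher in set 1 and 5 in set 2, while over all genes set 1 was the higher one for 15% and set 2 for 16.8%. Within the striatal-marker area alone, 12 members were higher in set 1 and 4 in set 2 (14.7% and 8.65% of genes), and 11 were higher in set 3 and 2 in set 4 (12.6% and 11.7% of genes). Between sets 2 and 4 the direction depended on the setting, with 0 members above in set 2 and 1 above in set 4 by CPM, 2 and 0 with the areas weighted equally, and 6 and 1 within the striatal-marker area. The part of tissue quality, probe behaviour and genotype in these differences was not tested, because no set could be tied to a sample. In the same sets Celsr3 stood at 31.7, 46.8, 26.0 and 47.2 CPM.

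Regulators also differed between sets. Between sets 1 and 2, 7 of the 19 were higher in set 1 and 1 in set 2 (17.5% and 12.9% of genes). Between sets 3 and 4, 6 were higher in set 3 and 0 in set 4 (12.9% and 17.2% of genes). With TMM scaling 10 were higher in set 1 and 0 in set 2 (25.8% and 8.25% of genes), and 10 were higher in set 3 and 0 in set 4 (23.9% and 10.5% of genes). Smchd1, a silencing factor that acts on the clusters, had 49.0, 17.4, 45.5 and 15.8 CPM. Stag1, a cohesin subunit gene, had 62.2, 32.4, 68.4 and 28.8 CPM, while Ctcf had 85.0, 59.0, 82.1 and 52.5 CPM. These 3 genes were highest in sets 1 and 3. Not all regulators had that order. Smc3, another cohesin subunit gene, had 70.3, 76.8, 79.3 and 73.8 CPM, lowest in set 1, and the regulator called higher in set 2 than in set 1 was Setdb1.

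The genes whose levels were most like those of a member were sought over 53 levels of area by set, as Pearson's r of log2(CPM + 1). The levels share libraries and areas, so r is a description only. Mmd, Itpka and Icam5 were most like Pcdhgc5 (r of 0.961, 0.958 and 0.955). Gprin2 was most like Pcdhgc4 (r = 0.911), and Slc2a1, the glucose transporter of brain endothelium, was most like Pcdhgc3 (r = 0.95). Sun1 was most like Pcdhac1 (r = 0.806), Htt most like Pcdhac2 (r = 0.947), Pcmtd1 most like Pcdhb19 (r = 0.860) and Slc35d1 most like Pcdhgb7 (r = 0.878).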

How the data were processed

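Raw counts per gene and spot were deposited by the authors in 1 table for all 4 sections. Space Ranger and Seurat are named in the submitters' processing notes, with no version or role, and the genome build, probe set and spot filter are not given in the sources used here. The members and gene lists were chosen with earlier results of these data known. Spots with at least 500 counts were kept. Spots were clustered by the Leiden method (resolution 0.8, seed 0) on a graph of 15 neighbours in 30 principal components (scanpy 1.11.5, leidenalg 0.10.2, igraph 0.11.9, scikit-learn 1.9.0). The components were taken from log values of 2000 variable genes at 10000 counts per spot, each gene being centred set by set, and neither the members nor the listed, Celsr and sex-linked genes were among them. A cluster joined the area with the most markers, at least 3, among its 20 leading genes by fold of mean CPM with 10 CPM added. Clusters 0, 6, 7 and 15 made up the striatal-marker area, with most spots of set 2 in cluster 6 and of set 4 in cluster 7. Summed counts gave CPM with exact Poisson intervals, ratios with exact conditional binomial intervals and shares with Clopper-Pearson intervals (scipy 1.17.1). edgeR 4.0.16 (R 4.3.3) gave the TMM and RLE scaling factors. The calls in the striatal-marker area against the other spots were tested on simulated counts with known changes. These counts had Poisson error and the same underlying profile in all sets, and the other steps were not simulated. Named with values were the C-type genes, the 3 members of each cluster with the most counts, and each member called in an area or apart between sets. The genes most like a member had the highest Pearson's r. Genotype tests were not run, and the partner list is not reported here in full. Of the 56 member names 55 match a RefSeq symbol, in the same order. Tables were handled with pandas 2.3.3 and numpy 2.4.6, and figures drawn with matplotlib 3.10.9, under Python 3.11.15.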

Additional observations from a re-analysis of the deposited data

How the results depend on the processing

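No paired analysis was possible because barcode endings match neither a mouse nor a replicate number. Tests of genotype (edgeR, DESeq2, replicate block, leaving out each mouse) were likewise not run. Equal weights for areas set by marker score and the striatal-marker area alone were added after seeing the data. The median ratio of no called member changed sign. Of the counts and levels that answer a comparison, 112 values were the same under an alternative and 50 moved, and of the other values 305 were the same, 82 lost the call and 29 moved. Between sets 2 and 4 the direction of the counts turned with equal area weights, as it did over all genes between sets 3 and 4 with TMM and between sets 1 and 2 with equal area weights. Why they moved was not tested.

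In the hypothalamic-marker area the counts of members called higher and lower, 1 each, fell to 0 and 0 at resolution 0.4, and 2 were called lower at the threshold below 1.5-fold that was tried (the lower fold threshold). In the striatal-marker area, 3 were called higher, against 1 with clusters made without set 2, 1 by marker score, 6 with TMM, 11 with RLE, 16 at the lower fold threshold and 0 at 2-fold, and 1 lower became 0 at 2-fold. In the white matter-marker area, 0 higher became 1 without set 4 and 1 at the lower fold threshold. The 7 lower became 3 at resolution 1.2, 4 without centring, 1 at a minimum of 2000 counts per spot, 2, 4 and 12 without sets 1, 3 and 4, 2 by marker score, 11 at the lower fold threshold and 1 at 2-fold.

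Between sets 1 and 2, 16 members became 25 with TMM and 4 at 2-fold. Between sets 1 and 3, 2 became 4 with equal area weights, 4 with equal weights by marker score, 1 at 200 counts per gene, 0 at 2-fold and 1 in the striatal-marker area alone. Between sets 1 and 4, 23 became 7 at 2-fold, and between sets 2 and 3, 12 became 2 at 2-fold. Between sets 2 and 4, 1 became 2 with equal area weights, 2 with equal weights by marker score, 2 after thinning, 0 at 2-fold and 7 in the striatal-marker area alone. Between sets 3 and 4, 17 became 30 with TMM, 30 with RLE and 4 at 2-fold.

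With TMM, the level of Pcdhgc5 in the striatal-marker area was 389.7, 373 and 421 CPM in sets 1 to 3, and in the hypothalamic-marker area 62.8 CPM in set 2 and 85.2 CPM in set 4. By marker score the hypothalamic level was 79.7, 73.7, 86.9 and 72.0 CPM in sets 1 to 4, and its share of gamma counts 13.8% in set 1, 13.9% in set 3 and 12% in set 4. Of 20 calls of single members in areas named by markers, 20 held with RLE, 19 with TMM and 8 by marker score. With clusters made without set 1, 2, 3 or 4, the calls that held were 11, 11, 7 and 14, and those lost were 7, 6, 8 and 5. The remaining calls could not be evaluated there, because their area was not among those compared. Depth limits the smallest areas and the lowest members, such as Pcdhb1.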
